A study of Homo sapiens with 9 samples.

Results

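Cytosolic heat shock genes are described here as 10 genes picked by name: HSPA1A, HSPA1B, HSPA8, HSPH1, DNAJB1, BAG3, HSP90AA1, HSPB1, HSPD1 and HSPE1. Each was the only line of that name in a table of 62703 genes, and all 10 were among the 13443 genes whose mean reached 1 TPM. TPM divides the reads of a gene by its length and scales each library to the same total, so levels can be compared between genes. The label is not exact for HSPD1 and HSPE1, whose proteins form the chaperonin of the mitochondrial matrix.

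The 9 RNA-seq libraries came from human cells that the labels call HepG2, a line from a liver carcinoma, all given palmitic acid, the saturated fatty acid, at 750 µM for 24 h. In 3 libraries the cells then received 20 µM curcumin, a polyphenol of turmeric, with 5 µM CuCl2 for 12 h. In 3 more they received 20 µM curcumin without CuCl2 for 12 h, and the last 3 had palmitic acid alone. The labels describe no vehicle, no CuCl2 without curcumin and no cells without palmitic acid, and give no further 12 h to the group with palmitic acid alone. Those 12 h and the compounds therefore cannot be told apart.

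Cells under heat, oxidants or misfolded protein release the transcription factor HSF1 from chaperones, and HSF1 binds heat shock elements in the promoters of chaperone genes. HSP70 proteins bind exposed hydrophobic stretches of client proteins in a cycle driven by ATP. J-domain proteins such as DNAJB1 load the clients, and HSPH1 and BAG3 are nucleotide exchange factors that release them. HSP90 takes over part of these clients, and small heat shock proteins such as HSPB1 hold unfolded protein without ATP.

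The heat shock element is made of GAA units in alternating orientation. RefSeq windows around gene starts (GRCh38.p14, 250 bases before the start to 50 after it) were at hand for all 10 genes, 14 windows in all. GAANNTTC or TTCNNGAA, which pair 2 units and read the same on both strands, occurred in 8 of these 14 windows, from 7 genes, and in 13.5% of all 35116 windows. The longer GAANNTTCNNGAA or TTCNNGAANNTTC, with 3 units and containing the shorter motif, occurred in 3 of the 14 windows and in 0.49% of all. The windows of HSPH1, HSPE1 and BAG3 held neither, which says only that these letters are not in them. The spacing of the units is fixed by the motifs sought. The stretches below show one match for each of the 7 genes, in capitals, read on the gene's own strand.
HSPA1A (chr6:31815426-31815455, plus strand): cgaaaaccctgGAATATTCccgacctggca
HSPA1B (chr6:31827622-31827651, plus strand): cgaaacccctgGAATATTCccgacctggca
HSPB1 (chr7:76302480-76302509, plus strand): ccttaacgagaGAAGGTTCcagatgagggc
HSPA8 (chr11:123062170-123062199, minus strand): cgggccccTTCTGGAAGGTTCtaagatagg
HSP90AA1 (chr14:102087111-102087140, minus strand): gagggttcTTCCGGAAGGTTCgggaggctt
DNAJB1 (chr19:14518426-14518455, minus strand): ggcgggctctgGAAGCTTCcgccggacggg
HSPD1 (chr2:197500061-197500090, minus strand): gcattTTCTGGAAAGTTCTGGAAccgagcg

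HSPA8 and HSP90AA1 carried TTCNNGAANNTTC 55 and 88 bases before a RefSeq start, and HSPA8 a second match of 3 units at 230 bases. The HSPD1 match ran over 18 bases and lay 245 bases before one of its 2 RefSeq starts, but downstream of the other. HSPD1 and HSPE1 are transcribed away from each other, and the other HSPD1 start lies 105 bases from that of HSPE1. The HSPD1 match ended 294 bases before the RefSeq start of HSPE1, outside the HSPE1 window. It lay within the GENCODE span of HSPE1, which begins at 197499994. DNAJB1 had 3 windows with 3 matches in all. HSPA1A and HSPA1B, the neighbouring genes of inducible HSP70 on chromosome 6, had their match 106 and 105 bases before the start. Longer stretches around that match, before any GENCODE exon, show how alike the 2 promoters are.
HSPA1A (chr6:31815314-31815463, plus strand): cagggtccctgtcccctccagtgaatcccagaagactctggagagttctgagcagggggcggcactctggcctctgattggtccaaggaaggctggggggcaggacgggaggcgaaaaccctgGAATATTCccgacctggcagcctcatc
HSPA1B (chr6:31827510-31827659, plus strand): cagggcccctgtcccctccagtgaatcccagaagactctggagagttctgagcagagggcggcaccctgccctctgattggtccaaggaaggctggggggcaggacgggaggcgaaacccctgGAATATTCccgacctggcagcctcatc

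These 150-base stretches differed at 5 positions. The longest reading frames of transcripts HSPA1A-201 and HSPA1B-201 (GENCODE release 29), of 1926 bases each, differed at 4 positions and encoded the same 641 residues. Reads from the coding part can hardly be assigned to one gene. The parts after the reading frame, of 264 and 379 bases, aligned with 190 identical positions, 66 mismatches and 131 gaps. They were 49.1% identical with gaps counted, so reads from there can be assigned to one gene. How many reads came from each part is not known. Values of the single genes are therefore uncertain, and the sum of both lines is given beside them. Counts of heat shock genes still take them as separate genes.

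Some facts of the whole series touch these genes. None of 12 hepatocyte markers reached a mean of 1 TPM, and 6 of them, with ALB, TTR and APOB, were listed at 0 in every library. The label HepG2 names a liver line, and these values do not show liver cells. The identity of the cells was not tested. Of 6 epithelial genes, the keratin genes KRT7, KRT8 and KRT18 were abundant, with means of 1217, 892 and 862 TPM. The other 3, KRT19, EPCAM and CDH1, were under 1 TPM. Of the other marker lists, 5 of 6 fibroblast, 4 of 6 leukocyte and Kupffer cell and 5 of 5 endothelial genes were under 1 TPM. Mitochondrial genes took 10.7%, 11.8% and 11.4% of the TPM with curcumin and CuCl2, 10.4%, 12.4% and 10.9% with curcumin, and 13%, 12.5% and 10.1% with palmitic acid alone. Replicate 3 of palmitic acid alone stood apart from the other 2 libraries of its group in this share and in several heat shock genes. Depth cannot be read from TPM, so no counting error is given.

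The 10 genes held between 0.448% and 0.491% of all TPM in a library. Their summed level was 4685, 4681 and 4673 TPM with curcumin and CuCl2, 4484, 4746 and 4503 TPM with curcumin, and 4914, 4705 and 4536 TPM with palmitic acid alone. The 3 groups overlapped in this sum.

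By mean level over the 9 libraries the order was HSPA8 (1205 TPM), HSPE1 (1093), HSPD1 (669), HSPB1 (540), HSP90AA1 (519), HSPA1A (212), DNAJB1 (153), HSPA1B (125), HSPH1 (74.1) and BAG3 (68.5 TPM). HSPA8 was above HSPE1 in 9 of 9 libraries, although their ranges overlapped across libraries. HSPD1 exceeded HSPB1 in 8 of 9 libraries, and HSPB1 exceeded HSP90AA1 in 5 of 9, so HSPB1 and HSP90AA1 have no settled order. HSPH1 was above BAG3 in every library with overlapping ranges. HSPB1 varied most over the 9 libraries, with a coefficient of variation of 22.7%, and HSPA8 least, at 4.39%. These values include differences between groups. Within groups HSP90AA1 varied more than HSPB1, at 4.83% against 4.17% with curcumin and CuCl2. With curcumin the values were 16.6% against 11.9%, and with palmitic acid alone 20.3% against 14.7%.

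**Figure D1:**
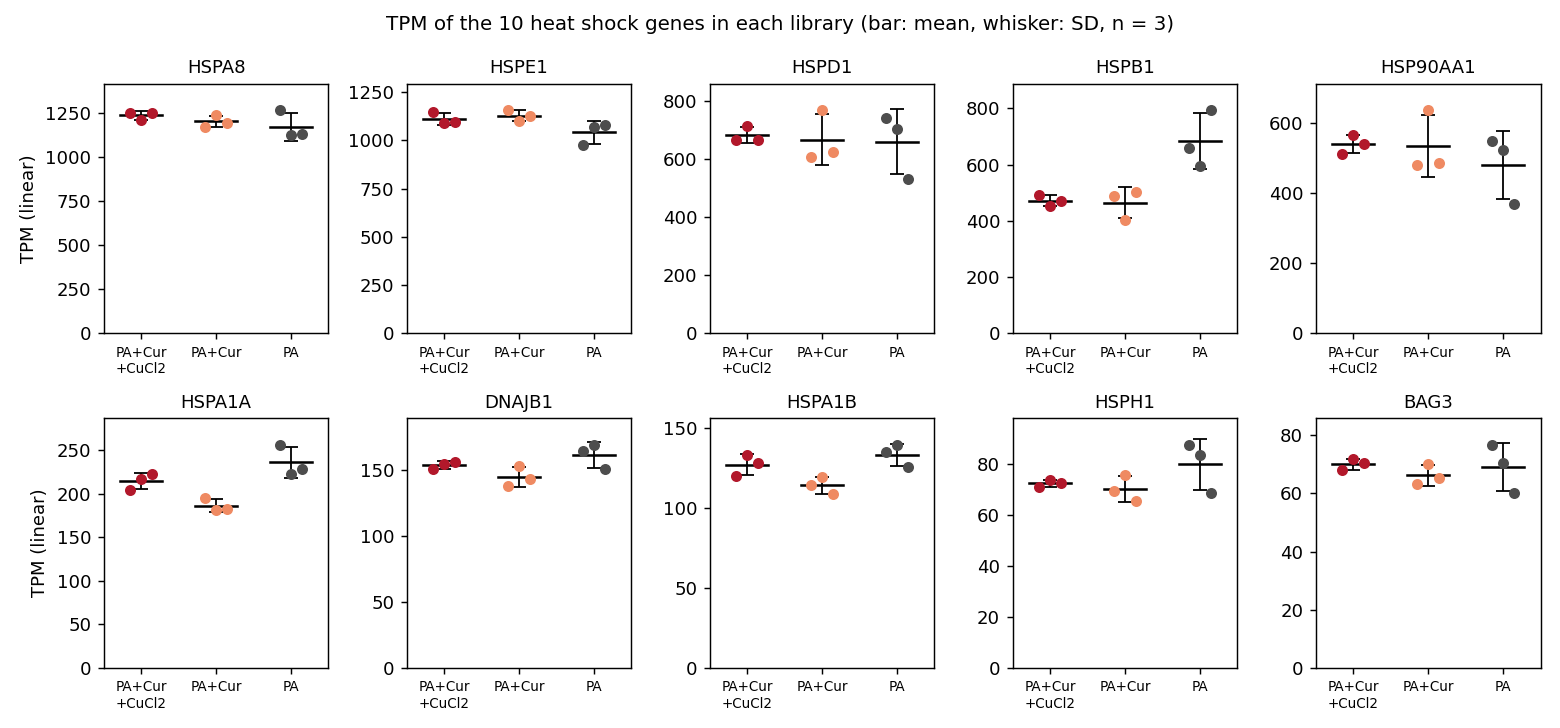
TPM on a linear axis (y) of each of the 10 genes in the 3 groups (x), with 1 point per library, a bar for the mean and a whisker for the SD of 3 libraries. The points of HSPB1 in both groups with curcumin lie below all 3 points of palmitic acid alone, and those of HSPA1A are lowest with curcumin.

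The first comparison set curcumin against palmitic acid alone, for the response to curcumin of cells under the fatty acid. The small heat shock protein gene HSPB1 and the inducible HSP70 gene HSPA1A fell, to 0.680 and 0.789 of their level with palmitic acid alone. None of the 10 passed the test as higher. The other 8 did not pass the test, among them HSPA8, HSP90AA1 and the pair HSPD1 and HSPE1. Under limma with Benjamini-Hochberg adjustment over all 13443 genes, 2 of 10 heat shock genes were called at an adjusted p under 0.05, against 1.96% of all genes, and both were lower, as were 1.21% of all genes, while none of the 10 and 0.759% of all genes were higher. At an unadjusted p under 0.05 there were 4 of the 10 genes (HSPB1, HSPA1A, HSPA1B and DNAJB1) and 1885 of all genes. In bulk RNA, fewer cells of a kind and less RNA per cell cannot be told apart.

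HSPB1, on chromosome 7 at 76302544 to 76304295 (plus strand, GENCODE release 29, GRCh38), had 489, 401 and 503 TPM with curcumin, against 661, 596 and 793 TPM with palmitic acid alone. The groups did not overlap, and the lowest library with palmitic acid alone lay above the highest with curcumin. The mean was 465 ± 55.2 TPM with curcumin and 684 ± 100.4 TPM with palmitic acid alone (SD, n = 3 each). The log2 fold change was -0.55 (SE 0.11, 95% interval -0.81 to -0.30, limma adjusted p = 0.0462). Without replicate 3 of palmitic acid alone it was -0.44 (limma adjusted p = 0.0449). With any other single library left out, the adjusted p lay between 0.0617 and 0.124, so the call was lost.

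HSPA1A, on chromosome 6 at 31815464 to 31817946 (plus strand), had 195, 182 and 183 TPM with curcumin, against 256, 223 and 229 TPM with palmitic acid alone. Every library with curcumin was below every one with palmitic acid alone. Means were 186 ± 7.25 TPM with curcumin and 236 ± 17.5 TPM with palmitic acid alone, a log2 fold change of -0.34 (SE 0.07, limma adjusted p = 0.0458). HSPA1B, on chromosome 6 at 31827735 to 31830255, had 114, 120 and 109 TPM with curcumin, against 135, 139 and 126 TPM with palmitic acid alone. These groups did not overlap either, but its log2 fold change of -0.22 did not pass (SE 0.07, limma adjusted p = 0.179).

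The 2 genes together had 309, 301 and 291 TPM with curcumin, against 391, 363 and 355 TPM with palmitic acid alone. Their sum depends less than either line on how reads were divided between them. It is not free of that division, because TPM divides by length and the parts after the reading frame differ in length. The sum fell by 0.30 on the log2 scale (SE 0.06, 95% interval -0.43 to -0.16, limma adjusted p = 0.0465). Relative to HSPA8, the constitutive HSP70 gene, the summed level was 0.263, 0.243 and 0.244 with curcumin and 0.309, 0.322 and 0.314 with palmitic acid alone, as ratios of TPM within a library. These ratios did not overlap between the groups. With 1 library other than replicate 3 of palmitic acid alone left out, the limma adjusted p of HSPA1A lay between 0.0775 and 0.182, and that of the sum between 0.0760 and 0.195. Without that replicate 3 they were 0.0349 and 0.0268. The calls of HSPB1, HSPA1A and the sum were also lost without the filter, with median-of-ratios scaling, without the variance trend and in a fit of these 2 groups alone (limma adjusted p between 0.0922 and 0.196).

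None of the partners of HSP70 passed the test. DNAJB1, the J-domain gene, had 138, 153 and 143 TPM with curcumin and 165, 169 and 151 TPM with palmitic acid alone. Its log2 fold change was -0.16 (95% interval -0.31 to -0.01, limma adjusted p = 0.332). HSPH1 had 69.5, 75.5 and 65.5 TPM with curcumin and 87.4, 83.5 and 68.4 TPM with palmitic acid alone. Both genes overlapped between the groups, and replicate 3 of palmitic acid alone was the lowest of its group in both. HSPH1 had an interval of -0.40 to 0.04. BAG3, which also couples HSP70 to autophagy, had 63.1, 70.1 and 65.5 TPM with curcumin and 76.6, 70.4 and 60.3 TPM with palmitic acid alone, with an interval of -0.26 to 0.15. The libraries with curcumin lay inside the range of those with palmitic acid alone. HSPA8 had 1173, 1239 and 1196 TPM with curcumin and 1266, 1126 and 1129 TPM with palmitic acid alone, and its interval was -0.10 to 0.17.

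HSP90AA1, the stress-inducible form of cytosolic HSP90, had 480, 638 and 487 TPM with curcumin and 551, 524 and 370 TPM with palmitic acid alone. The groups overlapped, with 2 of the 3 libraries with curcumin below the highest with palmitic acid alone. Its log2 fold change of 0.16 had an interval of -0.19 to 0.51 and was -0.02 without replicate 3 of palmitic acid alone. Relative to HSP90AB1, the constitutive form, HSP90AA1 stood at 0.561, 0.618 and 0.561 with curcumin and at 0.542, 0.549 and 0.457 with palmitic acid alone. These within-library ratios did not overlap, with the lowest in replicate 3 of palmitic acid alone.

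The 2 chaperonin genes of mitochondria did not share a pattern although their RefSeq starts are 105 bases apart. HSPE1, the co-chaperonin, lies on chromosome 2 at 197499994 to 197503457 (plus strand), within the span of HSPD1 at 197486581 to 197516737 (minus strand). HSPE1 had 1156, 1101 and 1127 TPM with curcumin and 974, 1071 and 1078 TPM with palmitic acid alone. It was the only one of the 10 with groups that did not overlap in the upward direction, with a log2 fold change of 0.12 that did not pass (95% interval -0.01 to 0.25, limma adjusted p = 0.420). Without replicate 1 of palmitic acid alone, the lowest library, the value was 0.069. HSPD1, the chaperonin itself, had 607, 768 and 624 TPM with curcumin and 743, 702 and 532 TPM with palmitic acid alone. HSPD1 gave 0.02, with an interval of -0.27 to 0.31, and -0.12 without replicate 3 of palmitic acid alone. The ratio of HSPD1 to HSPE1 ran from 0.493 to 0.763 over the 9 libraries, and both ends were libraries with palmitic acid alone. In all, 4 of the 10 genes had groups that did not overlap between curcumin and palmitic acid alone, against 16.8% of all genes. Of these 4, HSPB1, HSPA1A and HSPA1B were lower, where 8.61% of all genes were, and HSPE1 was higher, where 8.15% were. HSPA1A and HSPA1B share coding reads and are not separate observations. The median log2 fold change of the 10 was -0.11, and that of all genes tested was -0.02.

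**Figure D2:**
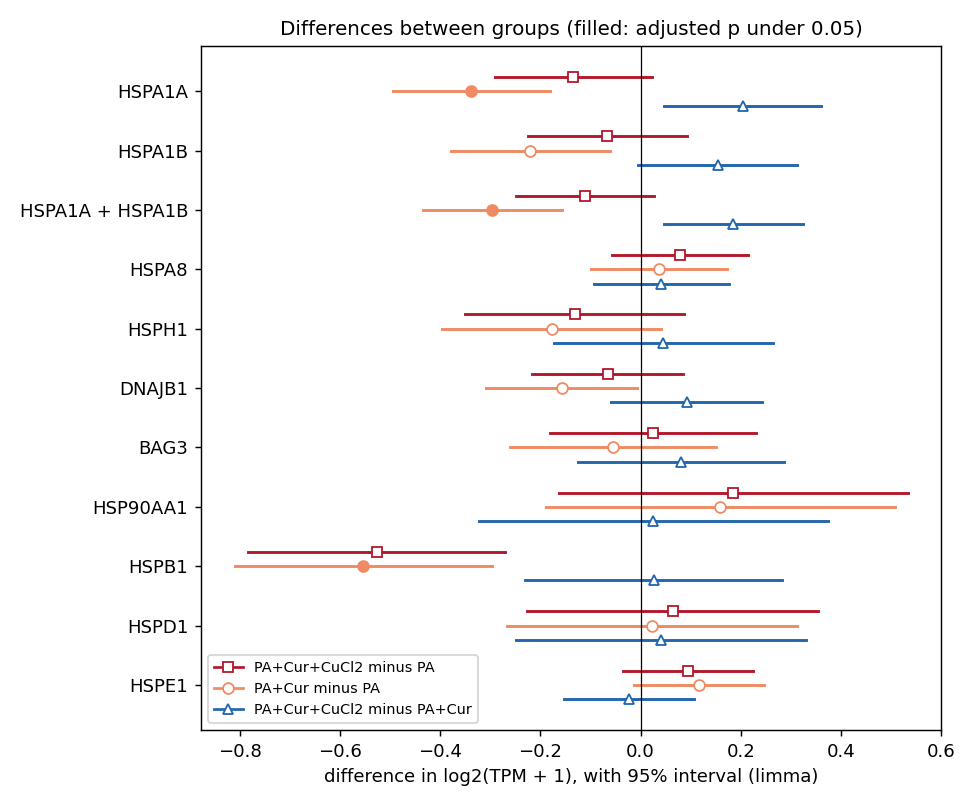
Difference in log2(TPM + 1) between groups (x) for each gene and for HSPA1A and HSPA1B summed (y), with the 95% interval from limma as a line and filled symbols where the adjusted p was under 0.05. The filled symbols are those of HSPA1A, the sum and HSPB1 for curcumin against palmitic acid alone, at -0.34, -0.30 and -0.55.

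The second comparison set curcumin with CuCl2 against palmitic acid alone, and it uses the same control libraries as the first. None of the 10 heat shock genes passed the test, where 1.44% of all genes did, 0.543% higher and 0.9% lower. At an unadjusted p under 0.05 there was 1 gene of the 10, HSPB1, and 1821 of all genes. HSPB1 had 491, 452 and 470 TPM with curcumin and CuCl2, against 661, 596 and 793 TPM with palmitic acid alone, and the groups did not overlap. Its log2 fold change was -0.53 (SE 0.11, 95% interval -0.78 to -0.27, limma adjusted p = 0.0628), just outside the threshold that -0.55 had met with curcumin. It passed in 4 of 19 other settings, at an adjusted p = 0.0473 with a minimum mean of 5 TPM, for example.

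HSPA1A had 205, 217 and 223 TPM with curcumin and CuCl2, against 256, 223 and 229 TPM with palmitic acid alone. The highest library with CuCl2 lay just below the lowest with palmitic acid alone. Its log2 fold change was -0.13 (95% interval -0.29 to 0.02, limma adjusted p = 0.451). HSPA1B had 120, 133 and 128 TPM with curcumin and CuCl2 and overlapped with palmitic acid alone, at -0.07 (95% interval -0.22 to 0.09). The sum of both had an interval of -0.25 to 0.03 (limma adjusted p = 0.490). Relative to HSPA8, the sum stood at 0.260, 0.290 and 0.280 with curcumin and CuCl2, below all 3 libraries with palmitic acid alone (0.309, 0.322 and 0.314).

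The other 7 genes lay between -0.13 for HSPH1 and 0.19 for HSP90AA1, and none passed. HSPA8 had 1252, 1209 and 1252 TPM with curcumin and CuCl2, with an interval of -0.06 to 0.21 against palmitic acid alone. DNAJB1 had 151, 155 and 156 TPM with curcumin and CuCl2, with an interval of -0.22 to 0.08. Both overlapped with palmitic acid alone. HSPH1 had 70.7, 73.6 and 72.7 TPM (interval -0.35 to 0.09) and BAG3 68.0, 71.7 and 70.4 TPM (interval -0.18 to 0.23) with curcumin and CuCl2. These narrow sets fell inside the wider ranges of palmitic acid alone. HSP90AA1 had 514, 566 and 541 TPM with curcumin and CuCl2 (interval -0.16 to 0.53), and 2 of these libraries lay between the lowest and the highest with palmitic acid alone. HSPD1 had 667, 713 and 666 TPM (interval -0.23 to 0.35) and HSPE1 1147, 1090 and 1094 TPM (interval -0.04 to 0.22) with curcumin and CuCl2. HSPD1 overlapped with palmitic acid alone and HSPE1 did not, its highest library with palmitic acid alone being at 1078 TPM. The groups did not overlap for 3 of the 10 genes, HSPB1 and HSPA1A lower and HSPE1 higher, against 19% of all genes, 10.3% lower and 8.67% higher. The median log2 fold change of the 10 was -0.02, against -0.03 for all genes tested.

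The last comparison set curcumin with CuCl2 against curcumin, for the effect of added copper. No gene of the table passed under limma (0% of 13443), and 215 had an unadjusted p under 0.05. Of the 10 heat shock genes, 1 did. That was HSPA1A, with 205, 217 and 223 TPM with curcumin and CuCl2, against 195, 182 and 183 TPM with curcumin. The groups did not overlap, and the log2 fold change was 0.20 (SE 0.07, 95% interval 0.05 to 0.36, limma unadjusted p = 0.0162, adjusted p = 1). HSPA1B, also without overlap, had 0.15 (95% interval -0.00458 to 0.31), and the sum of both 0.19 (95% interval 0.05 to 0.32, limma adjusted p = 1). The groups did not overlap for 2 of the 10 genes, both higher, against 6.24% of all genes, 2.63% higher and 3.61% lower. Those 2 are HSPA1A and HSPA1B, which share coding reads and are not separate observations.

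Estimates ran from -0.02 for HSPE1 to 0.20 for HSPA1A, and of the 10 genes only HSPA1A had an interval wholly above 0. Several of these genes vary together between libraries, so their signs are not separate observations. The median was 0.04, against -0.01 for all genes tested. The 95% interval was -0.23 to 0.28 for HSPB1, -0.25 to 0.33 for HSPD1 and -0.32 to 0.37 for HSP90AA1. For HSPA8 the interval was the narrowest but for HSPE1, at -0.09 to 0.18.

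Libraries of the same group differed in these genes in a shared way. In replicate 3 of palmitic acid alone HSP90AA1, HSPD1, HSPH1 and BAG3 lay 0.36, 0.29, 0.21 and 0.19 below the group mean on the log2 scale, while HSPB1 lay 0.22 above it. In replicate 2 of curcumin HSP90AA1 and HSPD1 lay 0.27 and 0.21 above the group mean, and HSPB1 lay 0.20 below it. Replicate 3 of palmitic acid alone had the lowest mitochondrial share of its group, at 10.1%, and replicate 2 of curcumin the highest of its group, at 12.4%. The 3 libraries with CuCl2 deviated by at most 0.083 for any of the 10 genes.

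**Figure D3:**
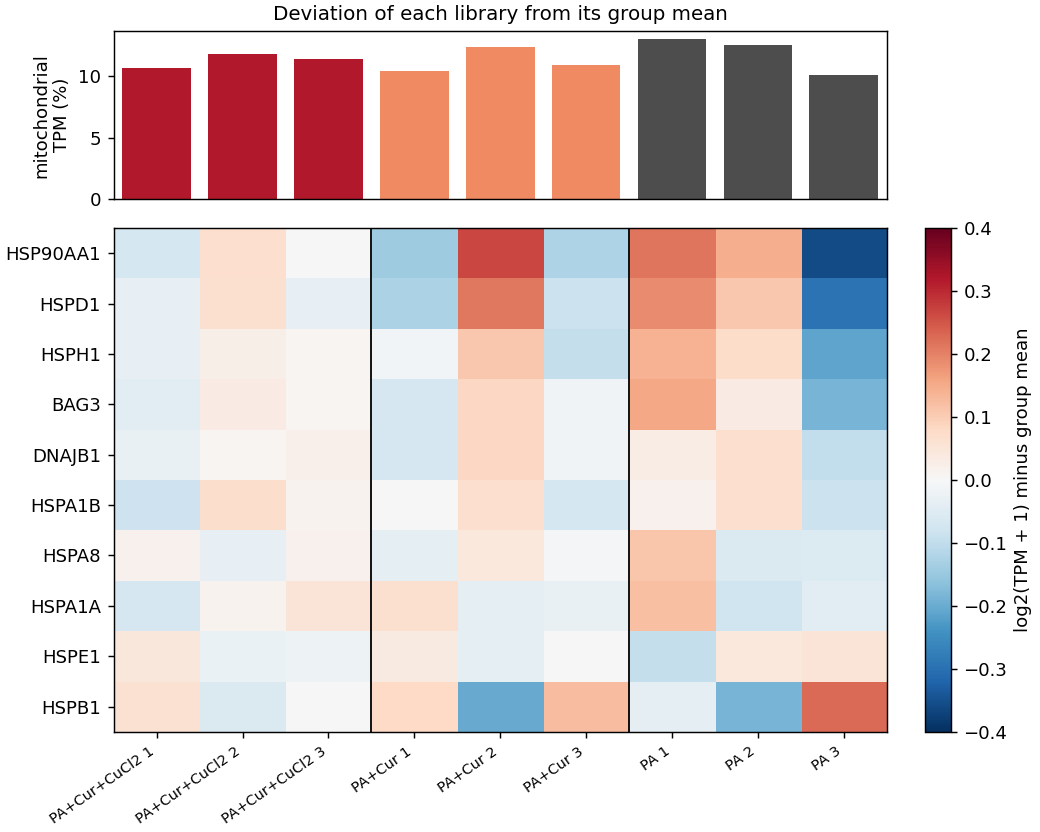
Top, percent of TPM in mitochondrial genes per library. Below, log2(TPM + 1) minus the mean of the library's own group for each gene (rows) and library (columns), red above and blue below. HSP90AA1 is 0.36 below its mean in replicate 3 of palmitic acid alone and HSPB1 0.22 above.

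With the mitochondrial share of each library as a covariate, 4 of the 10 genes passed for curcumin against palmitic acid alone and 3 for curcumin with CuCl2, in a fit that called 1505 and 1436 genes in all. HSPB1 was lower in both, at -0.59 with CuCl2 (limma adjusted p = 0.00119) and -0.63 with curcumin (limma adjusted p = 0.00078). HSP90AA1 was higher in both, at 0.29 with CuCl2 (limma adjusted p = 0.00388) and 0.28 with curcumin (limma adjusted p = 0.00425). HSPA1A at -0.33 (limma adjusted p = 0.0145) and HSPA1B at -0.19 (limma adjusted p = 0.0361) were lower with curcumin. HSPD1 was higher with CuCl2, at 0.15 (limma adjusted p = 0.0434). What differs between libraries along with this share was not tested.

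Genes whose log2(TPM + 1) followed a heat shock gene most closely were sought among 8115 named genes averaging 5 TPM or more. The measure was Pearson's r over the 9 libraries, as a description of libraries that fall into 3 groups. The search left out antisense, LINC and clone names, names with a dot, and symbols ending in P or in P and digits. That removed pseudogenes, but also genes such as STIP1, TRAP1 and VCP, which therefore could not appear as nearest. HSPB1 was nearest to SUPV3L1, KRT18 and PLAC8 (r = 0.988, 0.987 and 0.987). The epithelial list, of which KRT7, KRT8 and KRT18 were measured above 1 TPM and KRT19, EPCAM and CDH1 below it, summed to 2637 to 2715 TPM with curcumin and CuCl2, 2505 to 2865 TPM with curcumin and 3314 to 3812 TPM with palmitic acid alone. Like HSPB1, its sum did not overlap between either group with curcumin and palmitic acid alone, and its part in the HSPB1 result was not tested. HSPA1A was nearest to FADS3, TMPRSS3 and TMEM45A (r = 0.961, 0.939 and 0.937). HSP90AA1 was nearest to ZFAND5, NARS1 and ADIPOR2 (r = 0.995, 0.995 and 0.992). HSPD1 was nearest to MON1B, AP1AR and NCOA4 (r = 0.989, 0.988 and 0.988), and HSPE1 to NDUFC2, COX7A2 and TRMT112 (r = 0.977, 0.969 and 0.966). HSPH1 followed AHNAK, AFF1 and SEC62 (r = 0.990, 0.986 and 0.983). BAG3 followed TOX4 and the mitochondrial genes MT-CYB and MT-ND4 (r = 0.985, 0.974 and 0.973), and DNAJB1 followed ODC1 (r = 0.958). HSPA1B and HSPA8 had no gene with an r over 0.95 among those searched. None of these nearest genes is itself on the list of 10.

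The other chaperone genes were read from 7 lists with 87 genes, of which 81 passed the filter on low values. None of the 81 passed the test for curcumin against palmitic acid alone, against 1.96% of all genes, and 9 of them had an unadjusted p under 0.05, against 1885 of all 13443 genes. With CuCl2 against palmitic acid alone DNAJB2 was the only one of the 81 to pass, against 1.44% of all genes, and 9 had an unadjusted p under 0.05, against 1821 of all genes. Counts this small are near or below the shares over all genes. DNAJB2, a J-domain gene known from neurons, had 35.2, 33.4 and 34.5 TPM with curcumin and CuCl2, against 45.3, 51.4 and 46.6 TPM with palmitic acid alone. The groups did not overlap, and it fell by 0.46 on the log2 scale (SE 0.09, limma adjusted p = 0.0369). With 1 library left out it passed in 3 of 9 cases, with adjusted p between 0.0334 and 0.154. With curcumin it had 40.6, 34.1 and 36.1 TPM and a log2 fold change of -0.36 that did not pass (limma adjusted p = 0.0759), though it did with the mitochondrial share as a covariate (-0.38, limma adjusted p = 0.0167).

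HSPA6, an HSP70 gene that is strictly inducible by stress, was barely detected. It had 2.01, 2.20 and 2.26 TPM with curcumin and CuCl2, 1.06, 0.79 and 1.10 TPM with curcumin, and 1.29, 1.26 and 1.37 TPM with palmitic acid alone. The 3 groups did not overlap with one another. The log2 fold change of curcumin with CuCl2 against curcumin was 0.67 (SE 0.14, 95% interval 0.35 to 0.99, limma unadjusted p = 9.72e-04, adjusted p = 1). At this low level the value depended on the pseudocount, at 1.07 with a pseudocount of 0.1 and 0.26 with one of 5. Against palmitic acid alone it was 0.45 with curcumin and CuCl2 (limma adjusted p = 0.179) and -0.22 with curcumin (limma adjusted p = 0.569). HSPA4, a relative of HSPH1, had intervals of -0.13 to 0.54 with CuCl2 and -0.20 to 0.46 with curcumin.

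HSF1, the gene of the main heat shock factor, had 67.4, 65.6 and 67.1 TPM with curcumin and CuCl2, 69.9, 63.9 and 70.5 TPM with curcumin, and 78.0, 70.7 and 75.3 TPM with palmitic acid alone. Every library with curcumin lay below every one with palmitic acid alone, but neither difference passed (-0.16 with CuCl2, limma adjusted p = 0.344, and -0.13 with curcumin, limma adjusted p = 0.455). HSF2, the gene of a second factor, ranged over 12.3 to 15.1 TPM with curcumin and CuCl2, 12.3 to 17.6 TPM with curcumin and 11.8 to 18.6 TPM with palmitic acid alone, and no order can be read. HSPA9, which encodes the mitochondrial HSP70, had a mean of 401 TPM, and HSP90AB1 one of 928 TPM. Their log2 fold changes with curcumin and CuCl2 and with curcumin against palmitic acid alone were 0.01 and 0.01 for HSPA9 and 0.02 and -0.01 for HSP90AB1, and both genes changed sign in at least 1 other setting.

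By list, medians of the log2 fold change lay between -0.16 and 0.02 with curcumin and CuCl2 and between -0.14 and 0.01 with curcumin, each against palmitic acid alone. The 14 genes of the cytosolic chaperonin TRiC and its partner prefoldin ran from -0.12 to 0.26 with curcumin and CuCl2 and from -0.10 to 0.27 with curcumin. The 13 mitochondrial chaperone and protease genes ran from -0.25 to 0.11 and from -0.20 to 0.16 in the same order. The 13 HSP90 and co-chaperone genes ran from -0.21 to 0.31 and from -0.18 to 0.35. Of 7 other small heat shock protein genes only 3 passed the filter, and none of the 3 passed the test.

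**Figure D4:**
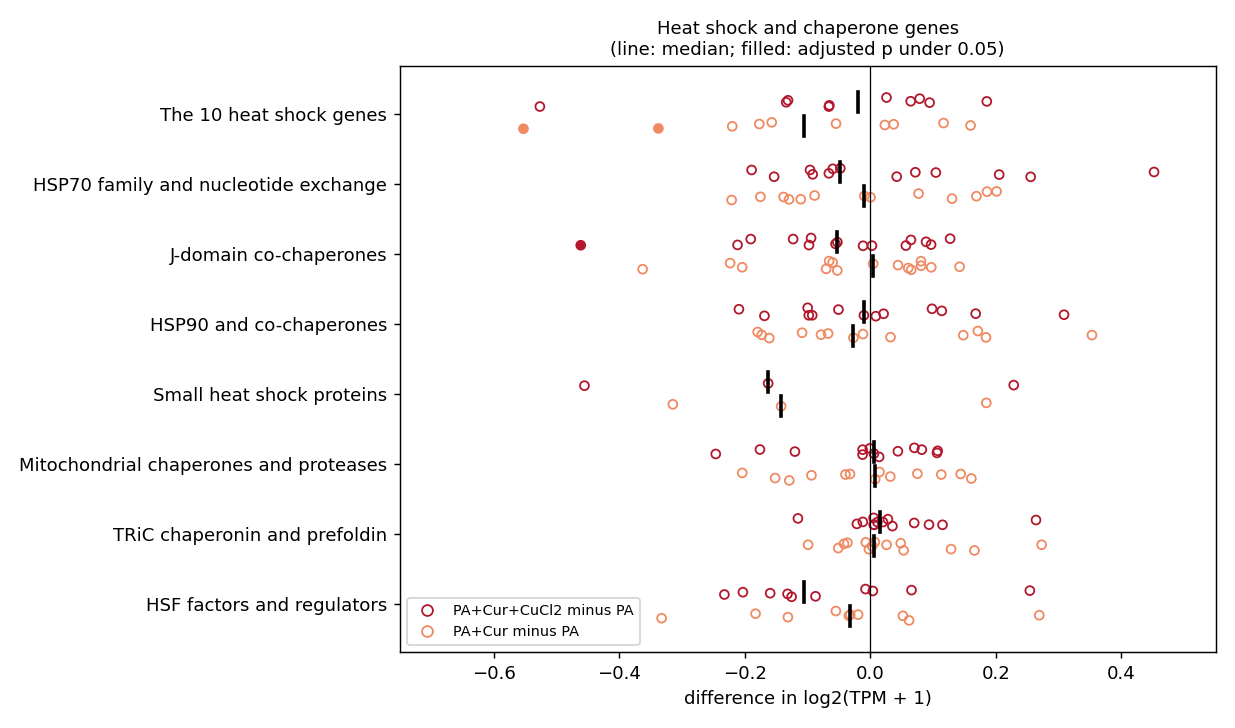
Difference in log2(TPM + 1) from palmitic acid alone (x) for the 10 heat shock genes and the genes of 7 chaperone lists that passed the filter (y), with 1 symbol per gene and comparison, a line at the median and filled symbols where the adjusted p was under 0.05. Most genes lie within 0.2 of 0, and the filled symbols are HSPB1 and HSPA1A with curcumin and DNAJB2 with curcumin and CuCl2.

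Pseudogene and overlapping lines held little signal. The 26 lines named as HSPE1 pseudogenes summed to at most 2.45 TPM in a library, the 18 of HSPD1 to 0.88 TPM, the 17 of HSPA8 to 0.87 TPM and the 2 of HSPB1 to 4.24 TPM. The HSP90AA pseudogenes, 5 lines, held 7.19 to 24.1 TPM. HSPE1-MOB4, a readthrough gene that overlaps HSPE1, had at most 4.82 TPM. How the authors' tools shared reads among these lines is not given in the sources used here.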

How the data were processed

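The authors deposited 1 table of TPM values for 9 libraries of cells labelled HepG2, 3 per group; its columns summed to between 999999 and 1000001. The submitters' processing notes name HISAT2 2.1.0, RSEM 1.3.3 and GRCh38.p13 without their roles; the annotation release is not given in the sources used here. Per the labels' protocols, libraries were stranded and made from polyadenylated RNA. Sample titles gave the group and the replicate number, and do not say whether cultures were separate. The p-values thus rest on a spread between libraries that may be technical. Depth is unknown.

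The 13443 genes whose mean over 9 libraries reached 1 TPM were tested as log2(TPM + 1), a scale that understates changes of low genes. All 9 libraries entered 1 model in limma 3.58.1 (R 4.3.3) with a variance trend, two-sided, with Benjamini-Hochberg adjustment across these genes and calls at an adjusted p under 0.05. The fit was checked on simulated data. The 10 genes, the lists and the tests were chosen with earlier results of these data known. Named are the 10 genes, up to 4 genes of each list past the threshold, 6 further genes whatever their values, and the 3 genes nearest by correlation, for genes past the threshold or where it exceeded 0.95. Sequences are from RefSeq (GRCh38.p14) and coordinates from GENCODE release 29 (GRCh38). Figures were drawn with matplotlib 3.10.9. Alternatives were pseudocounts of 0.1 and 5, testing without the filter, a filter at 5 TPM, scaling by median of ratios, mitochondrial share as a covariate, fits of 2 groups alone, the replicate number as a block, a fit lacking the variance trend, HSPA1A and HSPA1B summed, and leaving out each library.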

Additional observations from a re-analysis of the deposited data

How the results depend on the processing

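HSPB1, HSPA1A and the sum of HSPA1A and HSPA1B were lower with curcumin than with palmitic acid alone under every alternative run for them, but their calls at an adjusted p under 0.05 were not stable. In values on the log2 scale, the changes with lost calls were as follows for HSPA1A, HSPB1 and the sum. Without the filter they were -0.34, -0.55 and -0.30 (limma adjusted p = 0.0949, 0.135 and 0.0922). The fit of the 2 groups alone gave the same values of -0.34, -0.55 and -0.30 (0.178, 0.196 and 0.174), and so did the fit without the variance trend (0.115, 0.0929 and 0.136). Median-of-ratios scaling gave -0.31, -0.53 and -0.27 (0.103, 0.176 and 0.103). With the replicate block HSPA1A was -0.34 (0.081) and the sum -0.30 (0.0929), while HSPB1 kept its call. Testing without the filter takes in 31912 genes and the fit of 2 groups uses 6 libraries; the cause of the other losses was not tested.

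HSPB1 passed for curcumin with CuCl2 against palmitic acid alone at -0.53 with a minimum mean of 5 TPM and with the replicate block (limma adjusted p = 0.0473 and 0.0325). With the mitochondrial share as a covariate it passed at -0.59, as did HSP90AA1 at 0.29 and HSPD1 at 0.15, and for curcumin HSPA1B at -0.19 and HSP90AA1 at 0.28; the cause was not tested. Under that covariate the sign turned for BAG3 (0.00377), HSF2 (0.082) and HSP90AB1 (0.062) with curcumin against palmitic acid alone and for HSPA9 (-0.013) with CuCl2 against curcumin. Median-of-ratios scaling turned HSP90AB1 with curcumin (0.012).

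For curcumin against palmitic acid alone, the count of heat shock genes past the threshold was 0 without the filter, with median-of-ratios scaling, in the fit of 2 groups and without the variance trend, 1 with the replicate block and 4 with the mitochondrial share. For curcumin with CuCl2 against palmitic acid alone it was 1 with a minimum of 5 TPM and with the replicate block and 3 with the mitochondrial share. Over all genes, 264 calls with curcumin became 104 without the filter, 1505 with the mitochondrial share, 35 in the fit of 2 groups and 130 without the trend. The 194 calls with CuCl2 became 114, 1436 and 65 in the first 3 of these settings. Median-of-ratios scaling raised the calls over all genes, to 312 with curcumin and 254 with CuCl2. A minimum of 5 TPM gave 281 and 220 calls among 9643 genes, and the replicate block 177 and 147, in the same order. The mitochondrial share put 53% of calls higher with CuCl2 and 57.3% with curcumin, against 37.6% and 38.6% in the fit reported. For CuCl2 against curcumin, 0 calls became 1 with a pseudocount of 5 and 3 without the filter or in the fit of 2 groups.

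With each library left out in turn, the calls with curcumin against palmitic acid alone ranged from 54 to 619, and those of the 10 genes from 0 to 2. Changes ranged from -0.38 to -0.28 for HSPA1A, -0.65 to -0.44 for HSPB1, -0.32 to -0.25 for the sum, -0.019 to 0.27 for HSP90AA1, -0.12 to 0.12 for HSPD1, -0.15 to 0.022 for BAG3, -0.20 to 0.10 for HSF2, -0.11 to 0.058 for HSP90AB1 and -0.17 to 0.12 for HSPA9. For curcumin with CuCl2 against palmitic acid alone, calls ranged from 46 to 527, and from 0 to 1 among the 10 genes. Changes ranged from -0.62 to -0.41 for HSPB1, -0.083 to 0.16 for HSPD1, -0.068 to 0.10 for BAG3, -0.30 to 0.00438 for HSF2, -0.073 to 0.090 for HSP90AB1 and -0.16 to 0.13 for HSPA9. For CuCl2 against curcumin, calls ranged from 0 to 4. Changes ranged from -0.076 to 0.087 for HSPB1, -0.00183 to 0.10 for HSPH1, -0.046 to 0.16 for HSP90AA1, -0.022 to 0.15 for HSPD1, -0.22 to 0.016 for HSF2, -0.016 to 0.12 for HSP90AB1, -0.020 to 0.16 for HSPA4 and -0.069 to 0.16 for HSPA9. The highest counts against palmitic acid alone, 619 and 527, came without its replicate 3.

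Same-numbered libraries of different groups had correlations of their deviations from the group means between -0.269 and 0.246 over genes, so the numbers were not taken to pair samples. The replicate block moved the calls to 147 with CuCl2 and to 177 with curcumin, each against palmitic acid alone. DNAJB2 kept its direction in every setting but lost its call with CuCl2 in 5 settings that leave out no single library (limma adjusted p between 0.0670 and 0.106). With HSPA1A and HSPA1B summed, neither gene has a value of its own. TPM keeps no depth, so low genes such as HSPA6 carry an error that is not known.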
